A study of Drosophila melanogaster with 4 samples.

Results

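HP1c-enriched regions on 3R, the right arm of chromosome 3 of Drosophila melanogaster, are described here from chromatin immunoprecipitation followed by sequencing (ChIP-seq). All regions that the authors listed on this arm were taken, and regions on the separate scaffold 3RHet were not. The list for the replicate set, called the combined list, held 1428 regions on 3R among 6891 in all. The list of ChIP replicate 1 held 1177 of 5586 and that of ChIP replicate 2 held 1268 of 5946. A further 3 rows of the combined list on 3R are named as depleted and were left out. The animals of all groups were whole wild-type larvae of the Oregon-R strain at the third instar, with no treatment or transgene named. There were 2 HP1c ChIP libraries and 2 input libraries. Region lists of the ChIP libraries and of the replicate set were used, and the input libraries were not analysed here. The rabbit polyclonal antibody had been raised against a bacterially made fragment of HP1c. Whole larvae mix many tissues, so a region may come from some cell types only.

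HP1 proteins carry a chromodomain, which can bind methylated histone H3, and a chromoshadow domain, through which they pair and recruit partners. HP1a is the main HP1 protein of pericentric heterochromatin in flies. HP1c is known mostly from euchromatin, where it works with the zinc finger proteins WOC and ROW and is found near the starts of active genes. Arm 3R is mostly euchromatic and carries both Hox gene complexes of the fly. It also carries the HP1c gene itself, according to the RefSeq gene table. Positions are those of FlyBase release 5, in which 3R counts from its centromeric end, and genes are not placed on them here.

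The arm made up 16.5% of the sequence named in the file headers and held 20.7% (95% interval 19.8 to 21.7) of the combined regions. The share was 21.1% (20.0 to 22.2) in replicate 1 and 21.3% (20.3 to 22.4) in replicate 2. Intervals here and below are exact Clopper-Pearson intervals over regions and cover counting error only, and the read numbers behind the lists are unknown. The sequence total includes heterochromatin and unplaced scaffolds, on which few regions were listed. The larger share of regions than of sequence is thus not a comparison of 3R with the other arms. Among the arms analysed here, combined regions per Mb numbered 51.2 on 3R, against 50.0 on 2L, 54.6 on 3L and 66.1 on X. Among the strongest combined regions the share that lay on 3R was similar to that of the whole list. Of the 100 highest scores of the whole combined list 21 lay on 3R, of the 500 highest 115 did, and of the 1000 highest 224 did.

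HP1c regions took 11.9% of the length of 3R in replicate 2 and 10.6% in replicate 1, a mean of 11.3% ± 0.91 (SD, n = 2). They numbered 45.4 and 42.2 per Mb, a mean of 43.8 ± 2.3. These levels lay close to those of the other autosomal arms analysed here. Coverage was 11.2% ± 0.90 on 2L and 11.8% ± 0.65 on 3L (SD, n = 2 each). The difference between 3R and the mean of those arms was -0.21 ± 0.14 percentage points, negative in both replicates. It was smaller than the spread of any of these arms between replicates. That spread includes a shift shared by these arms, as replicate 2 was higher on each. In each replicate, 3R lay above 2L and below 3L. Coverage of X was 15.2% ± 1.2 (SD, n = 2), above 3R in each replicate. With 2 libraries of 1 kind, the differences between arms were not tested. The median region was 2328.5 bp wide in replicate 2 and 2274 bp wide in replicate 1 on 3R. On 2L it was 2292 and 2261 bp, on 3L 2275 and 2260.5 bp, and on X 2324.5 and 2279 bp.

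The strongest HP1c regions on 3R that both replicates shared were a few kilobases wide and lay at separate places along the arm. Among combined regions shared by both replicates, the 10 highest scored 3.64 to 4.15 on the authors' scale, whose unit the sources used here do not give. They were 2447 to 4421 bp wide, all above the median of 2291 bp for combined regions on the arm. Each replicate held 1 region at each of these places. Those regions were among the 14 highest of replicate 1 on 3R and among the 17 highest of replicate 2. Being shared was a condition of the choice. The combined score lay close to the mean of the replicate scores, so high ranks in both replicates are partly built into it.

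The highest of them, 3R from 11054014 to 11056654, scored 4.15 in the combined list, 4.26 in replicate 2 and 4.10 in replicate 1. It ranked first on 3R in all lists and was number 2 of the whole combined list. Its ends differed little between replicates: replicate 2 placed it from 11054047 to 11056681 and replicate 1 from 11054008 to 11056545. The region from 9484992 to 9488136 had a combined score of 4.03, with 4.23 in replicate 2 and 3.81 in replicate 1. That from 7834988 to 7837596 had a combined score of 3.98, with 4.14 in replicate 2 and 3.80 in replicate 1. It stood apart on its centromeric side, where no combined region lay within 30805 bp. The next, from 3731994 to 3734440, scored 3.97, with 4.24 in replicate 2 and 3.67 in replicate 1. It was the narrowest of the 10.

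The next 4 regions fell into 2 windows of 1 Mb. The region from 4173958 to 4176726 scored 3.77, with 3.96 in replicate 2 and 3.58 in replicate 1. That from 4475436 to 4479856 scored 3.79, with 3.90 in replicate 2 and 3.68 in replicate 1, and was the widest of the 10. Towards the telomere, the region from 21297600 to 21300372 scored 3.77 (3.90 in replicate 2 and 3.67 in replicate 1). The one from 21876912 to 21879626 scored 3.85 (4.02 and 3.66) and had a combined neighbour 877 bp away. The largest gap between replicates among the 10 was at 15855924 to 15858610, with 4.01 in replicate 2 and 3.35 in replicate 1. The last, from 1483926 to 1487478, scored 3.64 (3.82 and 3.58). Replicate 2 gave the higher score at all 10.

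Broad regions were few, and every one overlapped regions of both replicates, against 74.2% of all combined regions on 3R. Wide regions are more likely to meet an overlap of 1 bp. Combined regions with scores above 0.55 were also almost all shared, and the parts of width and score were not tested. Of the 1428 combined regions on 3R, 58 (4.06%) were wider than 5000 bp, and these held 10.1% of the sequence inside regions. Their median score was 1.84, against 0.77 for the other regions. Score and width went together across regions in each list, and Spearman's rho was 0.75 for replicate 2 and 0.77 for replicate 1. These are correlations across regions of 1 library, which share their depth. The share of regions over 5000 bp was 3.55% in replicate 2 and 2.55% in replicate 1 on 3R, against 5.18% and 4.40% on 2L, 4.35% and 3.47% on 3L, and 7.55% and 5.66% on X. Of these 4 arms, 3R had the lowest share in both replicates, and the difference was not tested.

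The broadest places were not the strongest, and the replicates divided some of them differently. The widest combined region, from 10102668 to 10119022, measured 16355 bp and scored 1.31. It was split into 3 regions in each replicate. Its highest-scoring part ran from 10102677 to 10106735 in replicate 2 (score 2.27) and from 10102674 to 10111909 in replicate 1 (1.53). The next, from 4872260 to 4884722, measured 12463 bp, scored 2.43 and was 1 unbroken region in both replicates, 12487 bp wide in replicate 2 and 11974 bp in replicate 1. Of the 11609 bp from 12029954 to 12041562, replicate 2 held 1 region of 11267 bp and replicate 1 held 3 regions. Of the 58 broad regions, 8 held 2 or more regions of replicate 2 and 16 held 2 or more of replicate 1.

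Most HP1c regions on 3R were found in both ChIP libraries. Of the 1177 replicate 1 regions, 1088 shared at least 1 bp with a replicate 2 region, or 92.4% (95% interval 90.8 to 93.9), against 90.4% over that whole list. Of the 1268 replicate 2 regions, 1074 shared bases with replicate 1, or 84.7% (82.6 to 86.6), against 83.7% over that whole list. The shares on 3R thus lay near the background. On 2L they were 91.6% and 83.5%, on 3L 89.7% and 84.8%, and on X 89.9% and 82.6%.

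The higher-scoring regions all had a partner, and the unmatched ones were weak and narrow. By score, the first region of replicate 1 without a partner ranked 582 on 3R, and that of replicate 2 ranked 617. At the 194 unmatched regions of replicate 2 the median score was 0.36 and the median width 1891.5 bp, against 1.42 and 2417 bp at its matched regions. At the 89 unmatched regions of replicate 1 these medians were 0.41 and 1613 bp, against 1.05 and 2323.5 bp. Wide regions are also more likely to touch another region, and the parts of width and score were not tested.

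The 3 strongest unmatched regions of each replicate lay within 10 kb of a region of the other replicate. Such distances are common on the arm, where the median gap between neighbouring regions was 6890 bp in replicate 2 and 7770 bp in replicate 1. Distances of the weaker unmatched regions are not given here. The strongest one of replicate 2 lay from 45630 to 47797, scored 1.20 and was 2992 bp from the nearest region of replicate 1. Its next were 25314030 to 25316117 with 1.17 and 4830995 to 4833164 with 0.99, at 8104 and 1320 bp. In replicate 1 the strongest lay from 2647260 to 2649472, scored 0.96 and was 425 bp from a region of replicate 2. It was followed by 19153681 to 19155712 with 0.75, at 2833 bp, and 10181541 to 10183861 with 0.73, at 384 bp. The combined list overlapped all 6 of these places. It overlapped 183 of the 194 unmatched regions of replicate 2 and 69 of the 89 of replicate 1.

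In the combined list, support by the replicates changed sharply with the score. Of its 1428 regions on 3R, 1059 (74.2%, 95% interval 71.8 to 76.4) overlapped regions of both replicates, against 71.1% over the whole list. A further 188 (13.2%) overlapped replicate 2 alone, 67 (4.69%) replicate 1 alone and 114 (7.98%) neither. Over the whole list these shares were 13.2%, 6.34% and 9.32%. When the regions were ranked by score and divided into 5 groups of equal size, the upper 3 groups were almost wholly shared. All 285 of the first group overlapped both replicates, as did 283 of 286 in the second and 282 of 285 in the third, which ended at a score of 0.55. In the fourth group, down to 0.30, 156 of 286 (54.5%) did, and in the last 53 of 286 (18.5%). The last group held 125 regions of replicate 2 alone and 48 of replicate 1 alone. The combined score lay close to the mean of the replicate scores, and mostly lower where 1 replicate alone had a region, as given below. A part of the change with score is thus built into the score, and that part was not separated.

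**Figure D1:**
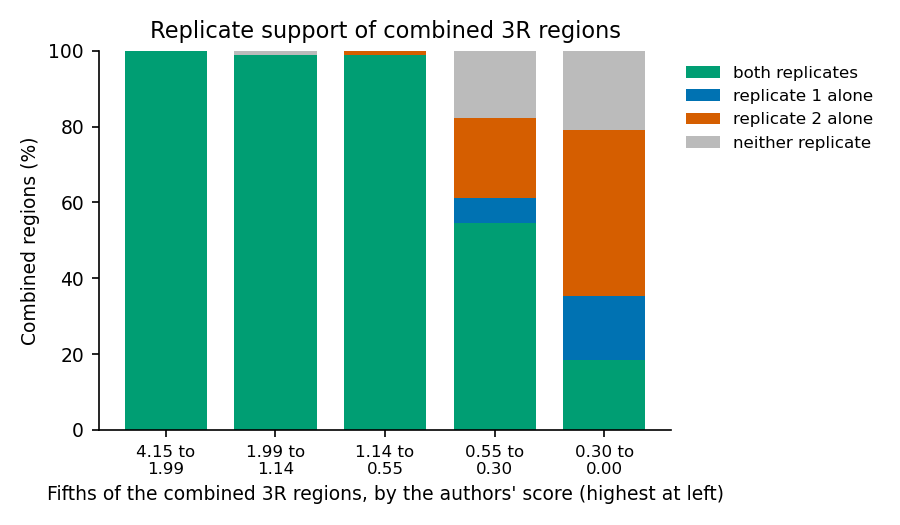
Percent of combined 3R regions (y axis) in each of 5 equal groups by the authors' score (x axis, highest at left, with the range of scores) that overlap both replicates, 1 replicate alone or neither. The part shared by both replicates is 100% in the first group, 54.5% in the fourth and 18.5% in the last. The score is close to the mean of the replicate scores, so it is not independent of this support.

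Regions in neither replicate were mostly narrow. No region of either replicate list was below 1301 bp, whereas 95 combined regions on 3R were, and none of these overlapped both replicates. They made up 65 of the 114 regions in neither. Some of them scored high: the strongest, from 18277360 to 18278360, measured 1001 bp and scored 1.76, and the next measured 1007 bp (4533098 to 4534104, score 1.59) and 1167 bp (19341298 to 19342464, score 1.18). These 3 were the exceptions in the second score group. They are listed by the replicate set alone, and they were not counted among the strongest regions.

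The combined score of a 3R region lay close to the mean of its replicate scores. At 1026 combined regions with exactly 1 region of each replicate, the combined score minus the mean of the replicate scores had a median of -0.0061, with quartiles of -0.035 and 0.024. It lay between both replicate scores at 879 of them (85.7%). Where only 1 replicate had a region, the combined score was lower than that replicate's score at 178 of 188 regions for replicate 2 and at 63 of 67 for replicate 1. The median ratio of the combined score to the replicate score was 0.60 for replicate 2 and 0.51 for replicate 1. In replicate 2 alone, the strongest combined regions were 45660 to 47756 with 0.68, 3071758 to 3073838 with 0.60 and 17198356 to 17200558 with 0.55, where replicate 2 itself scored 1.20, 0.96 and 0.84. In replicate 1 alone they were 12635148 to 12636166 with 0.49, 2647292 to 2649388 with 0.49 and 10181576 to 10183804 with 0.46, where replicate 1 scored 0.40, 0.96 and 0.73. The combined scores are made from the same libraries and are no independent measure.

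Where both replicates found a region, they ranked it alike. There were 1031 pairs in which 1 region of each replicate met only the other. Across them the scores had a Spearman rho of 0.91, and 82 of the 100 highest pairs were the same in both replicates. Replicate 2 scored higher in 793 of the 1031 pairs (76.9%). In score units, the difference of the medians was 0.48 at the strongest pairs and 0.09 at the weakest. In the upper of 5 groups by replicate 1 score, the median was 3.06 in replicate 2 and 2.59 in replicate 1, with replicate 2 higher in 188 of 206 pairs. In the lowest group it was 0.49 and 0.40, with replicate 2 higher in 130 of 207. No ratio is given, because the zero of the score is unknown. The sources used here do not say whether the scores have the same scale in both lists.

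**Figure D2:**
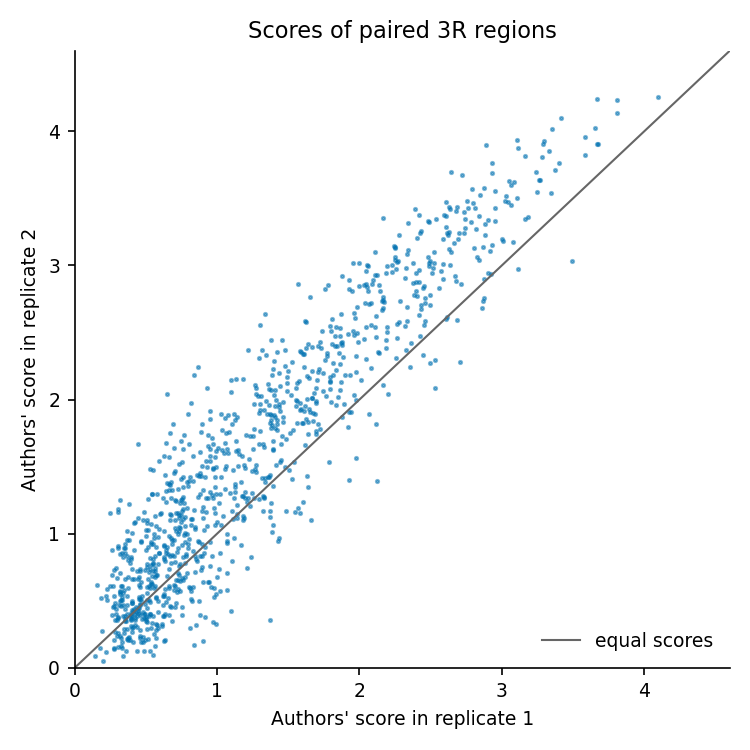
Authors' score in replicate 2 (y axis) against that in replicate 1 (x axis) for each of the 1031 one-to-one pairs of 3R regions (points), with the line of equal scores. Most points, 793, lie above the line, with medians of 3.06 and 2.59 in the upper of 5 groups by replicate 1 score and of 0.49 and 0.40 in the lowest.

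The replicates placed these shared regions at nearly the same positions. Their midpoints were a median of 40 bp apart (quartiles 17.5 and 96.25 bp), in regions with a median width of 2411 bp in replicate 2 and 2329 bp in replicate 1. In 782 pairs (75.8%) the midpoints lay within 100 bp, and in 8 they lay more than 1000 bp apart. No pair had both ends identical. The shared bases made up a median of 94.4% of the bases covered by either region. Starts lay a median of 34 bp further towards the centromere in replicate 2 and ends 28 bp further towards the telomere, and 723 pairs (70.1%) were wider in replicate 2. Placement was tighter at strong regions, with a median midpoint distance of 30.8 bp in the upper score group and 62.5 bp in the lowest. Pairing was not always single: 22 regions of replicate 2 met 2 or more of replicate 1, up to 4, and 12 of replicate 1 met 2 or more of replicate 2, up to 3.

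**Figure D3:**
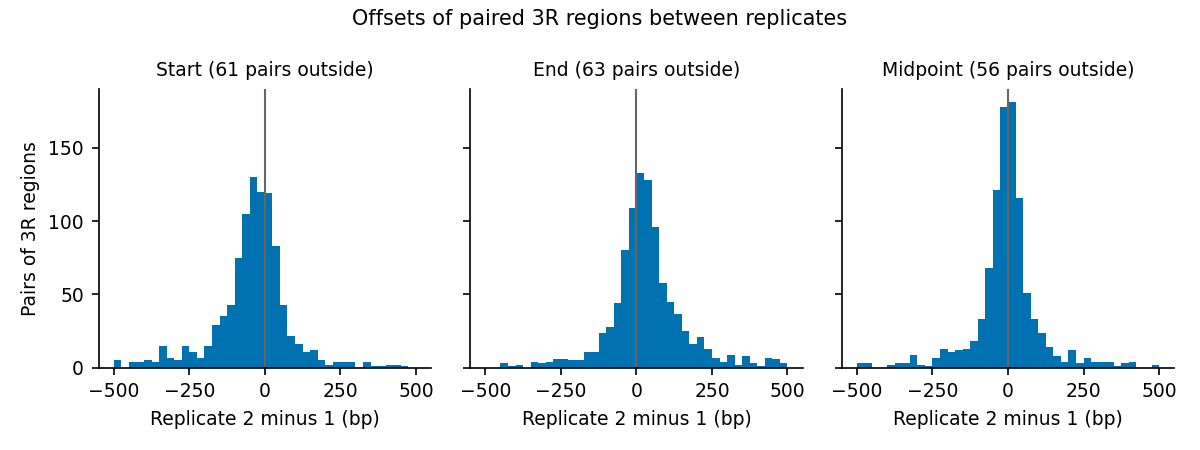
Number of one-to-one pairs of 3R regions (y axis) by the offset of the start, the end and the midpoint between replicates (x axis, replicate 2 minus replicate 1 in bp, bins of 25 bp, within 500 bp). Starts have a median offset of -34 bp, ends of 28 bp and midpoints of -1.5 bp, and 61, 63 and 56 pairs lie outside the range shown.

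HP1c regions were unevenly spread along the arm. Over the 27 full windows of 1 Mb, mean coverage ran from 6.29% to 17.4%, a 2.76-fold range, with a median of 10.7%. The range was 4.31-fold on 2L (4.08% to 17.6%), 3.71-fold on 3L (5.43% to 20.2%) and 2.64-fold on X (8.30% to 21.9%), and the difference between arms was not tested. The order of the windows was shared by the replicates (Spearman rho 0.97 and Pearson r 0.98 over 27 windows, as a description, since neighbouring windows are not independent). Replicate 2 was higher in 27 of 28 windows, the last of which is shorter than 1 Mb.

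Each of the 3 densest windows had a well-covered neighbour on 1 side and a window below the median on the other. The window from 5 to 6 Mb had 18.3% in replicate 2 and 16.4% in replicate 1 (mean 17.4% ± 1.3, SD, n = 2), with 73 combined regions. The window from 1 to 2 Mb followed with 15.2% ± 0.96 and 66 regions, and that from 19 to 20 Mb with 15.1% ± 1.1 and 64 regions. Beside them, coverage was 13.4% ± 1.3 from 4 to 5 Mb, 12.9% ± 2.0 from 0 to 1 Mb and 13.9% ± 1.7 from 20 to 21 Mb, all above the median. On its other side the densest window bordered a low one, with 8.62% ± 0.89 from 6 to 7 Mb. The other neighbours of the next 2 were also below the median. They had 9.74% ± 0.15 from 2 to 3 Mb and 9.17% ± 0.93 from 18 to 19 Mb. The sparsest window, from 22 to 23 Mb, had 6.46% in replicate 2 and 6.12% in replicate 1 (6.29% ± 0.24), with 34 regions. The window from 3 to 4 Mb had 7.56% ± 0.43 and that from 24 to 25 Mb had 7.77% ± 0.39.

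**Figure D4:**
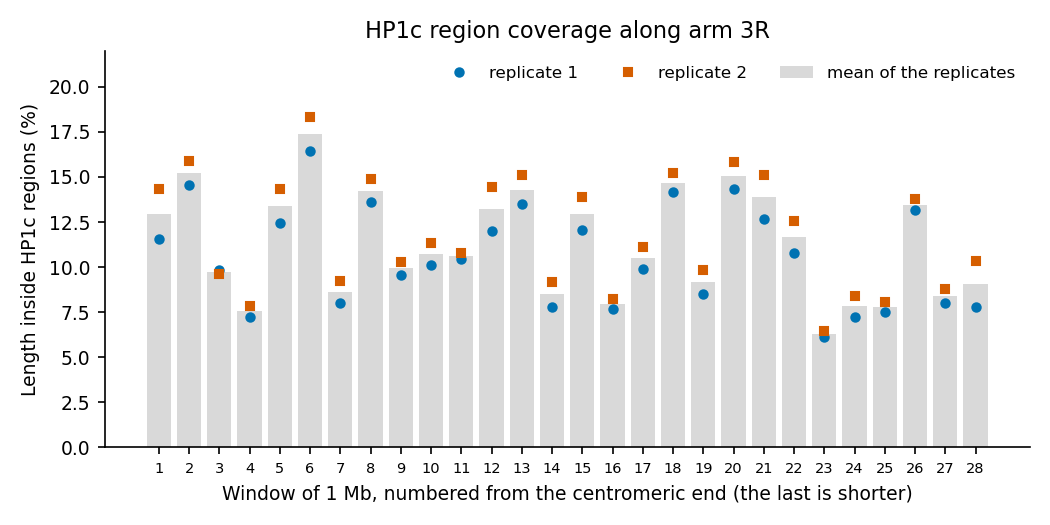
Percent of each 1 Mb window of 3R inside HP1c regions (y axis) in replicate 1, replicate 2 and their mean (circles, squares and bars), with windows numbered from the centromeric end (x axis). The mean is highest in window 6, at 17.4%, and lowest in window 23, at 6.29%, and windows 24 and 25 beside it are also low.

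Sparse windows held fewer regions, and their regions differed in width and score from one sparse window to the next. Over the full windows the number of combined regions ran from 32 to 73, while the median width stayed between 2056 and 2525 bp. Median scores ran from 0.45 to 1.33 and were weakly related to coverage (Spearman rho 0.18 over 27 windows, a description). In the sparsest window, from 22 to 23 Mb, the median score was 0.56 and the median width 2084 bp, and from 6 to 7 Mb they were 0.46 and 2056 bp, the lowest width on the arm. From 23 to 24 Mb the medians were 1.21 and 2377 bp, and from 24 to 25 Mb 1.10 and 2525 bp. The 3 neighbouring windows from 22 to 25 Mb were also pooled, a choice made after their values were seen. Their coverage was 7.29% ± 0.49, against 11.7% ± 0.96 on the rest of the arm (SD, n = 2). The median score of their 99 combined regions was 1.05 and the median width 2291 bp, against 0.80 and 2291 bp elsewhere. Both replicates overlapped 75.8% of them, against 74.0% elsewhere.

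The telomeric part of the arm was somewhat less covered than the centromeric part. When 3R was divided at its midpoint, coverage was 10.7% ± 0.89 in the distal part and 11.8% ± 0.94 in the proximal part (SD, n = 2). The difference was -1.18 ± 0.052 percentage points, of the same sign in both replicates. The distal part includes the sparse windows from 22 to 25 Mb, with a coverage of 7.29% ± 0.49. The parts were not compared without these windows, so the difference need not be a trend along the arm. Replicate 2 gave 11.3% and 12.5%, and replicate 1 gave 10.0% and 11.2%. Regions reached both ends of the arm. The first combined region covered positions 1 to 1168 with a score of 0.55, and neither replicate listed a region before 11117. The last region was found in all lists, from 27893213 to 27895354 in replicate 2 (score 1.19) and from 27893504 to 27895166 in replicate 1 (score 0.31), within 10 kb of the telomeric end.

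Long stretches of 3R held no HP1c region in any of the 3 lists. There were 19 stretches over 150 kb between the first and last regions, and they made up 13.3% of the arm. Of these, 13 lay in the distal part and 6 in the proximal part, and the distal count includes the 7 between 22 and 25 Mb. The longest ran from 3368679 to 3635015 (266.3 kb), followed by 23119465 to 23381842 (262.4 kb) and 6720347 to 6981619 (261.3 kb). Next came 16155237 to 16370723 (215.5 kb) and 18642828 to 18853440 (210.6 kb). The 2 long stretches at 3.4 and 6.7 Mb lie inside the low windows from 3 to 4 Mb and 6 to 7 Mb. Which genes or repeats lie there was not analysed here, and neither were reads that cannot be aligned.

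The count of long stretches on 3R against other arms depended on the length required. Over 150 kb, 3R had 0.68 per Mb, against 0.39 on 2L, 0.33 on 3L and 0.27 on X. Over 100 kb it had 39 (1.40 per Mb), against 1.52 on 2L, 1.39 on 3L and 1.03 on X. Over 200 kb it had 7 (0.25 per Mb), against 0.26 on 2L, 0.12 on 3L and 0.089 on X. The highest place of 3R thus held at 1 of these 3 lengths. Its longest stretch, 266.3 kb, was shorter than those of 2L (326.6 kb), 3L (404.2 kb) and X (334.2 kb).

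Between 22 and 25 Mb the stretches stood close together, with islands of HP1c regions between them. Of the 19 stretches, 7 lay wholly or partly in these 3 Mb and took 45.7% of them. The 4 islands there that were under 200 kb measured 122.8, 188.0, 16.5 and 92.4 kb in order from the centromere. Both replicates overlapped 4 of 7, 8 of 12, 4 of 5 and 3 of 6 of their combined regions. The share was 74.2% of all combined regions on 3R and 71.1% of the whole list, and the counts per island are small. The smallest island on the arm, from 24151080 to 24167535, spanned 16.5 kb between stretches of 206.7 kb and 202.0 kb. Scores were high at both its ends in each replicate. Replicate 2 listed 4 regions there with scores of 2.40, 0.60, 3.02 and 3.76, in order from the centromere, and replicate 1 listed 4 with 1.71, 0.66, 2.52 and 2.93. The combined list held 5, with the highest score, 3.39, at 24164496 to 24167510. Outside this part of the arm, an island of 78.1 kb from 16077182 to 16155236, between stretches of 192.6 and 215.5 kb, held 7 combined regions, all found by both replicates, with scores of 0.33 to 2.70.

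The typical HP1c region on 3R stood a few kilobases from the next, and a part of the gaps were much longer. The median gap between neighbouring regions was 6890 bp in replicate 2 and 7770 bp in replicate 1, with upper quartiles of 20088.5 and 22261 bp. Gaps over 20 kb made up 25.2% in replicate 2 and 28.0% in replicate 1. The same median gaps were 7501 and 8106.5 bp on 2L, 7734 and 7719 bp on 3L, and 4833 and 5500 bp on X, and the arms were not tested against each other. Neighbours less than 1 kb apart made up 11.7% of the gaps of replicate 2 and 11.4% of those of replicate 1 on 3R. They were 15.4% and 14.2% on X.

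**Figure D5:**
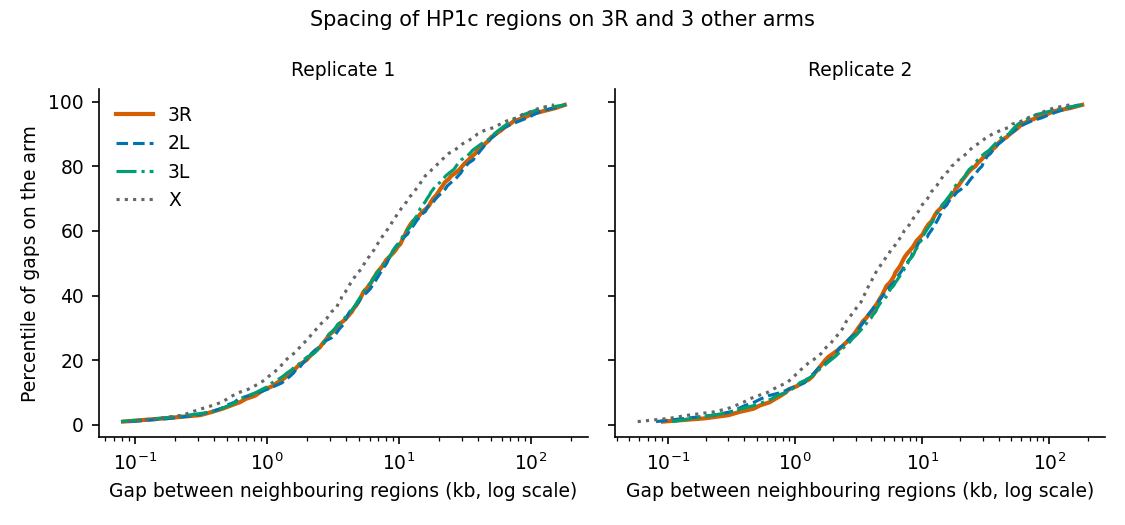
Percentile of the gaps on an arm (y axis) against the gap between neighbouring HP1c regions (x axis, kb, log scale) in each replicate, for 3R, 2L, 3L and X (lines). The lines of 3R, 2L and 3L run close together, and that of X lies to their left, at medians of 4833 bp in replicate 2 and 5500 bp in replicate 1.

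Of the combined regions on 3R, 970 lay less than 5000 bp from another. In both replicate lists, regions with close neighbours scored higher than those far from any. With neighbours joined where they lay less than 5000 bp apart, the 1428 combined regions formed 801 units. Of these, 458 were single regions and 40 had 5 or more. The median gap of the combined list was 6283 bp, so the number of runs depends on that limit. Runs were not set against other arms. The longest runs had 8 regions. One, from 11088232 to 11120562, scored 0.11 to 3.38 and held 8 regions in replicate 2 and 5 in replicate 1. The other, from 26080414 to 26112170, scored 0.48 to 1.85 and held 7 and 8. A run of 7 from 4470590 to 4503820 held one of the 10 strongest regions. In replicate 2 the median score was 1.34 for regions with a neighbour under 1 kb away, 1.26 at 1 to 5 kb, 1.00 at 5 to 20 kb and 0.89 at 20 kb or more. In replicate 1 the same medians were 1.03, 0.99, 0.90 and 0.74. The combined list did not follow this order throughout, with medians of 0.88, 0.94, 0.63 and 0.66. Regions of 1 library are not replicates, so no test was made.

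The fullest places of the arm included a pair of neighbouring windows near its centromeric end. Over 280 windows of 100 kb, the last one shorter, the median was 5 combined regions, 27 windows had none and 29 had 10 or more. The window from 1400001 to 1500000 held 15 combined regions, of which 14 overlapped both replicates, and HP1c regions covered 36.5% of it in replicate 2 and 34.6% in replicate 1. Its neighbour from 1300001 to 1400000 held 14, of which 9 overlapped both replicates, at 26.2% and 27.7%. The window from 11100001 to 11200000 also held 14, of which 10 overlapped both. Its coverage was 30.7% and 22.7%, the larger difference between replicates among these 3. Both replicates overlapped 74.2% of all combined regions on 3R and 71.1% of the whole list, and the counts in these windows are small.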

How the data were processed

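Formaldehyde-fixed larval chromatin was sheared by sonication and immunoprecipitated, per the labels' protocols. The aligner was Bowtie 0.12.7, per the submitters' processing notes, and the build is FlyBase release 5, per the file headers. The authors deposited, per ChIP library and once for the replicate set, a list of regions with a position and a score. The sources used here do not give the region caller, its threshold, the scale of the score, the handling of repeats or the way replicates were joined. Depth is unknown. Counts and coverage depend on the authors' threshold.

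The members are all enriched rows on 3R. A start listed as 0 was set to 1. Coverage, widths, gaps and overlaps (at least 1 bp) were computed per list with Python 3.11, numpy 2.4.6 and scipy 1.17.1, and the interval steps were tested on simulated data. Named regions are the 10 highest-scoring and 3 widest found by both replicates, the 3 highest of each other support class and of each replicate's unmatched regions, the 3 densest and sparsest full 1 Mb windows, the 5 longest stretches and the 3 fullest 100 kb windows. The window from 6 to 7 Mb, the block from 22 to 25 Mb, the islands and the runs were chosen after their values were seen. The members and lists were chosen with earlier results of these data known. Replicates are the 2 ChIP libraries; nothing says that they came from separate larval collections, so their SD may be technical. No test of significance was made. Gene positions of release 5 were not used here. Alternatives were merging within 500 bp, overlap of 50% of both regions, the upper 50% by score, either replicate alone, the combined list, other window sizes and other stretch lengths.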

Additional observations from a re-analysis of the deposited data

How the results depend on the processing

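Over 47 alternatives to 12 results, none changed sign, but most of these results cannot be negative. Only rho and the differences between parts, between arms and between matched and unmatched regions could have changed sign. Apart from leaving out a replicate, which with 2 replicates cannot move a mean by its SD, 16 of 35 values moved by less than the replicate spread or their interval (counts, by less than 1.5 times). Among the upper 50% by score, coverage of 3R was 6.66%, with 22.1 regions per Mb, a median width of 2575 bp, 7.20 percentage points between the densest and sparsest windows, -0.82 between the distal and proximal parts, 42 stretches over 150 kb and a rho of 0.88 between replicate scores. Fewer regions are part of that setting's construction. From the combined list, coverage was 13.1%, with 51.2 regions per Mb, and the differences were -1.32 between the distal and proximal parts and -0.36 between 3R and the mean of 2L and 3L; the cause was not tested. Merging gave 41.5 regions per Mb and a median width of 2341.5 bp, as joining regions must. A reciprocal overlap of 50% gave 89.1% for replicate 1, and a rho of 0.91, which is also its main value to 2 decimals and has no spread to judge a move by. Windows of 0.5 and 2 Mb gave 18.7 and 8.32 percentage points, and stretches over 100 kb numbered 39. Those over 200 kb, a length chosen after seeing the data, numbered 7. Leaving out either replicate gave 10.6% to 11.9% coverage, 42.2 to 45.4 regions per Mb, widths of 2274 to 2328.5 bp, window differences of 10.3 to 11.9, part differences of -1.22 to -1.15 and arm differences of -0.31 to -0.11. No paired analysis was possible because no result comes from a test and only lists of the ChIP libraries were used; differences within 3R and between arms were taken within each replicate. The part of read depth in regions found by 1 replicate alone was not tested, because depth is unknown.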

Other observations

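The 3 rows of the combined list on 3R that are named as depleted lay outside every comparison. They measured 1703 to 1721 bp and scored -0.033 to -0.0015. The row from 18641464 to 18643166 overlapped a region of replicate 1 with a score of 0.39, and that from 10531858 to 10533576 overlapped a region of replicate 2 with a score of 0.16. The third, from 24521088 to 24522808, overlapped no enriched region and lay inside one of the stretches over 150 kb.

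All 1428 combined regions on 3R ended on an even position, against 50.1% in the replicate 2 list and 46.0% in the replicate 1 list. In 4 places neighbouring combined regions stood less than 10 bp apart.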
